A study of Mus musculus with 960 samples.

Results

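The genes described here are 10 genes that lie downstream of the ERK MAP kinase in mouse cells: the PEA3 transcription factors Etv1, Etv4 and Etv5, the MAP kinase phosphatases Dusp4, Dusp5 and Dusp6, and the Sprouty and Spred inhibitors Spry1, Spry2, Spry4 and Spred1. They were chosen by function, with earlier results of these data known. Their windows are those entries of the deposited list of accessible chromatin (mouse build mm9) found inside the gene, or at most 20 kb away from it, by the GENCODE M1 annotation. The rule gave 65 of the 50000 windows of the list (0.13%) at 10 of 22350 protein-coding genes. A window is the 500 bp around a summit, the point of densest Tn5 insertion in a called peak, and it is called a start-site window when any of its bases lies within 1 kb of an annotated start site of the gene. The list holds positions only, so a window is present or absent and has no height. Of the 65 windows, 29 were start-site windows.

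The cells came from primary breast tumor tissue of the MMTV-PyMT mouse model at 3 months of age. In this model the mouse mammary tumor virus promoter drives the polyoma middle T oncogene in mammary epithelium. The cells were fixed, stained, transposed in bulk and sorted singly into 960 wells on 10 plates. Antibodies to EpCAM (an adhesion protein of epithelia) and HIF1α (the hypoxia factor subunit that oxygen destabilizes) were used on 8 plates. Antibodies to EpCAM and CD45 (a marker of hematopoietic cells) were used on 2. The labels name no animal and no HIF1α level for a well. For each stain the paper describes the cells as coming from the same mouse breast tumor. It also reports that the cells isolated for its HIF1α experiment were EpCAM+. The deposited list has HIF in its name, and the paper's methods describe summit calling on pooled cells of a single condition. Which stain the pooled cells had is not stated outright. The list is therefore 1 sample with no replicate, no read depth and no comparison between stains, and every count below is a description of it.

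Activated ERK turns on genes that switch it off again. The DUSP phosphatases remove phosphate from MAP kinases, Sprouty and Spred proteins block the signal between receptor and Raf, and the PEA3 factors are ETS family activators that carry the transcriptional response. Capicua (Cic) is a repressor that binds octamers of the form TGAATGAA or TGAATGGA and leaves the DNA when ERK is active. In human and mouse cells the PEA3 genes are among its known targets. The octamers and the ETS site were searched because capicua and ETS factors are known regulators of the genes described here. Genes and motifs were thus not chosen independently of each other. Polyoma middle T is known to recruit Src kinases, Shc and PI3 kinase, and ERK activity was not measured in these data.

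Among the motifs searched, the capicua octamers had the largest ratio of the share over all these windows to the share in the list. An octamer match on either strand occurred in 13 of the 65 windows (20.0%), against 4.22% of all windows in the list. The exact 95% interval was 11.1% to 31.8%, which covers counting error only and takes the windows as independent, although some overlap. Motifs that are common in the list could not have led this ranking. The HIF core, NFI half-site, TEAD and RUNX sites described below were in 29.4%, 33.2%, 24.7% and 27.5% of the list. A match in all 65 windows would still have given each of these motifs a smaller ratio than that of the octamers. The ranking therefore sets the octamers against the other, rarer motifs only. After matches in overlapping windows were counted once, the 10 genes carried 17 octamers at 8 genes. Most of them are shown here because the count rests on them, with 30 bases on each side unless that ran further than 30 bases into an untranslated exon. Each run is written 5′ to 3′ on the strand of its gene from the mm9 reference, and capitals mark the octamers, which read TCCATTCA or TTCATTCA where they lie on the opposite strand. Spry4 also had 1 octamer, and its sequence is not shown, nor is that of 1 further octamer downstream of Dusp6.
Etv4 at the start site, chr11:101646656-101646889, minus strand: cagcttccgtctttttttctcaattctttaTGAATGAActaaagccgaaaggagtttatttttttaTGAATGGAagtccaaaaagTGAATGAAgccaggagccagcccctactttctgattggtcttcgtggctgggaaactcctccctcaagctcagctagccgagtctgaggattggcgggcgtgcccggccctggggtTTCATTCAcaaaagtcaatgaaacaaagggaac
Etv1 upstream, chr12:39505153-39505220, plus strand: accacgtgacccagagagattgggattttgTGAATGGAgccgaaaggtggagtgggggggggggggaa
Etv1 in an intron, chr12:39515315-39515382, plus strand: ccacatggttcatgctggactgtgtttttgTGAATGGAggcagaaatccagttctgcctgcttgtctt
Etv5 upstream of the start site, chr16:22439964-22440031, minus strand: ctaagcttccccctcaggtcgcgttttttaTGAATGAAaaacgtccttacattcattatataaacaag
Etv5 in an intron near the start site, chr16:22438754-22438821, minus strand: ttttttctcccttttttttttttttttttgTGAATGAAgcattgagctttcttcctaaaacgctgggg
Etv5 in an intron farther in, chr16:22429105-22429172, minus strand: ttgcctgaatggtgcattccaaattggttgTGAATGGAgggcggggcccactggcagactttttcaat
Dusp4 upstream of the start site, chr8:35870050-35870289, plus strand: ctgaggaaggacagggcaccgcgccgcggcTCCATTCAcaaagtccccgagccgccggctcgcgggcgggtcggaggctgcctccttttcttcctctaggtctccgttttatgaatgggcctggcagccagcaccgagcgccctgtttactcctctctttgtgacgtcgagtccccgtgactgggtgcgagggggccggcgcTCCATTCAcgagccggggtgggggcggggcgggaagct
Dusp5 far upstream, chr19:53592299-53592366, plus strand: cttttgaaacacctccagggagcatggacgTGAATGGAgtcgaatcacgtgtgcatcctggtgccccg
Dusp6 in an untranslated exon, chr10:98729100-98729129, plus strand: gagagatttgcTCCATTCAttgtttttttg
Dusp6 downstream, chr10:98732117-98732184, plus strand: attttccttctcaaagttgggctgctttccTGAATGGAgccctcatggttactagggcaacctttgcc
Spry1 in the start-site region, chr3:37539880-37539947, plus strand: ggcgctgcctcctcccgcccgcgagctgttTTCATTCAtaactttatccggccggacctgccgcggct

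The start-site window of Etv4 stood out among them. It held 4 octamers, of which 3 lay at -171, -135 and -116 bp and the fourth across the outermost start site itself (distance 0). In the whole list 25 windows held 4 or more octamers and 8 of these lay at protein-coding start sites. In most windows with 3 or more octamers some of them overlapped or adjoined each other. Of the 50 windows with 3 or more octamers, 7 had all octamer starts more than 8 bp apart, and 1 of these 7 lay at a protein-coding start site. That window was the one at Etv4. The limits of 3 octamers and 8 bp were not planned beforehand. That Etv4 stands alone by them is therefore a description and no independent support. The start-site window of Dusp4 held 2 octamers at -267 and -95 bp.

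All 10 genes had a window within 20 kb, against 72.4% of all protein-coding genes, and all 10 had a start-site window, against 52.9%. Start sites in CpG-rich sequence are more often accessible than others, and 9 of the 10 genes, all but Etv1, had such a start site (at least 50% GC and an observed to expected CpG ratio of at least 0.6 in the 500 bp on each side). Among all protein-coding genes with a CpG-rich start site 84.7% had a start-site window, and 10 of 10 lay little above that share. The distance from other genes was larger in the number of windows. At least 2 start-site windows were found at 8 of the 10 genes, against 27% of all genes and 45.2% of CpG-rich genes. At least 3 were found at 7 of the 10 (all genes 10.8%, CpG-rich genes 18.4%), at least 4 at 3 of the 10 (4.22% and 7.23%) and at least 5 at Etv1 alone (1.79% and 3.06%). The windows nearest to the 1 kb limit lay 862 bp (Spred1) and 856 bp (Dusp6) from a start site on the inside, and 1063 bp (Spry2) and 1121 bp (Dusp6) on the outside.

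**Figure D1:**
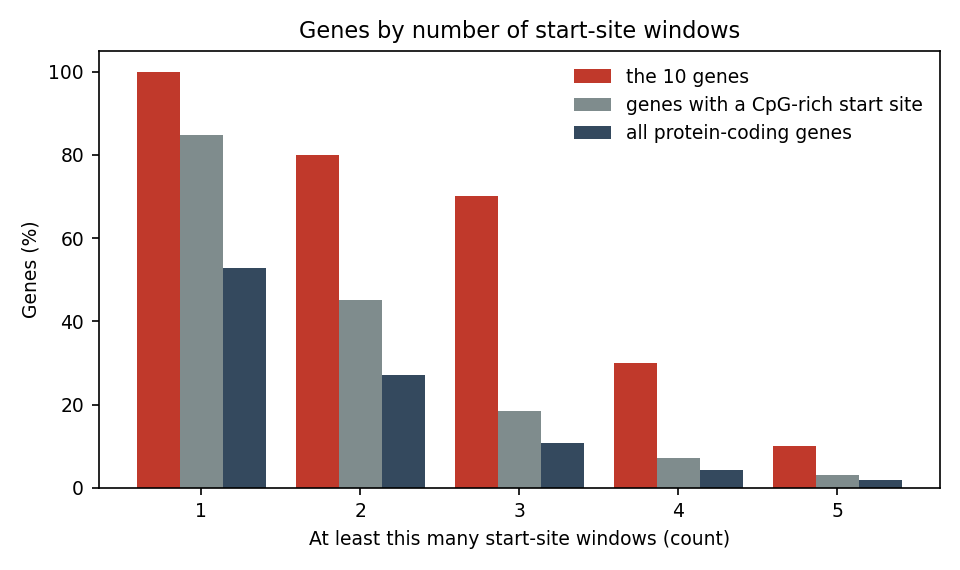
Percentage of genes (vertical axis) with at least 1 to 5 start-site windows (horizontal axis), for the 10 genes (red), for protein-coding genes with a CpG-rich start site (light gray) and for all protein-coding genes (dark). At 3 or more windows the 10 genes stand at 7 of 10, against 18.4% of CpG-rich and 10.8% of all genes.

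Counted over the gene and 20 kb on each side, the 10 genes had a median of 6 windows (range 2 to 15), against a median of 2 for all protein-coding genes (quartiles 0 and 5) and 4 for CpG-rich genes. The median gene length was 14.2 kb for the 10 genes, 15.4 kb for all genes and 26.1 kb for CpG-rich genes. Per kb of gene and flanks the medians were 0.0902, 0.0292 and 0.0451 windows in the same order. A neighboring gene within 20 kb can lend its own windows. For the 8 genes with no other protein-coding start site in that range, all but Etv4 and Spry4, the median was 7.5 windows, against 1 for all such genes and 3 for such genes with a CpG-rich start site. Of the 65 windows, 27 lay upstream, 21 in introns, 7 downstream, 5 in coding exons and 5 in untranslated exons.

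**Figure D2:**
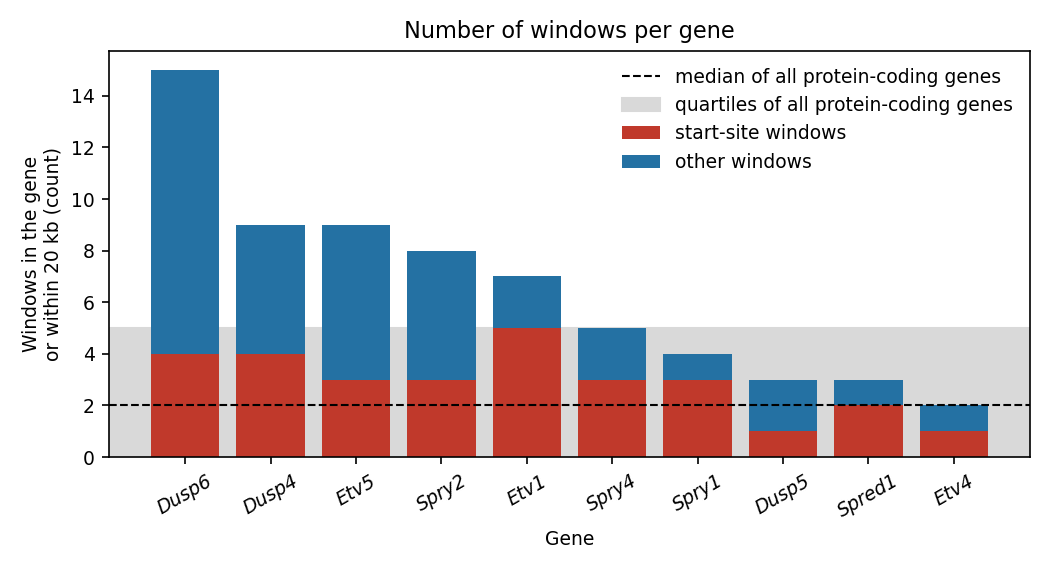
Number of windows in the gene or within 20 kb for each of the 10 genes (bars), split into start-site windows (red) and other windows (blue), with the median (dashed line, 2) and the quartiles (gray band, 0 to 5) of all protein-coding genes. Dusp6 had 15 windows and Etv4 had 2.

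MACS2 can split a broad called peak into several summits, which carry 1 call number and a letter each, so the number of summits kept from a call gives a rough measure of the breadth of an accessible stretch. The 65 windows came from 31 called peaks, and 16 of these kept 2 or more windows. Such calls held 50 of the 65 windows (76.9%), against 39.8% of the list. Among start-site windows it was 25 of 29 (86.2%), against 55.0% of the start-site windows in the list, and among the others 25 of 36 (69.4%), against 30.0%. Overlapping windows are not separate regions, and after merging the 65 windows formed 52 regions that covered 30705 bp.

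**Figure D3:**
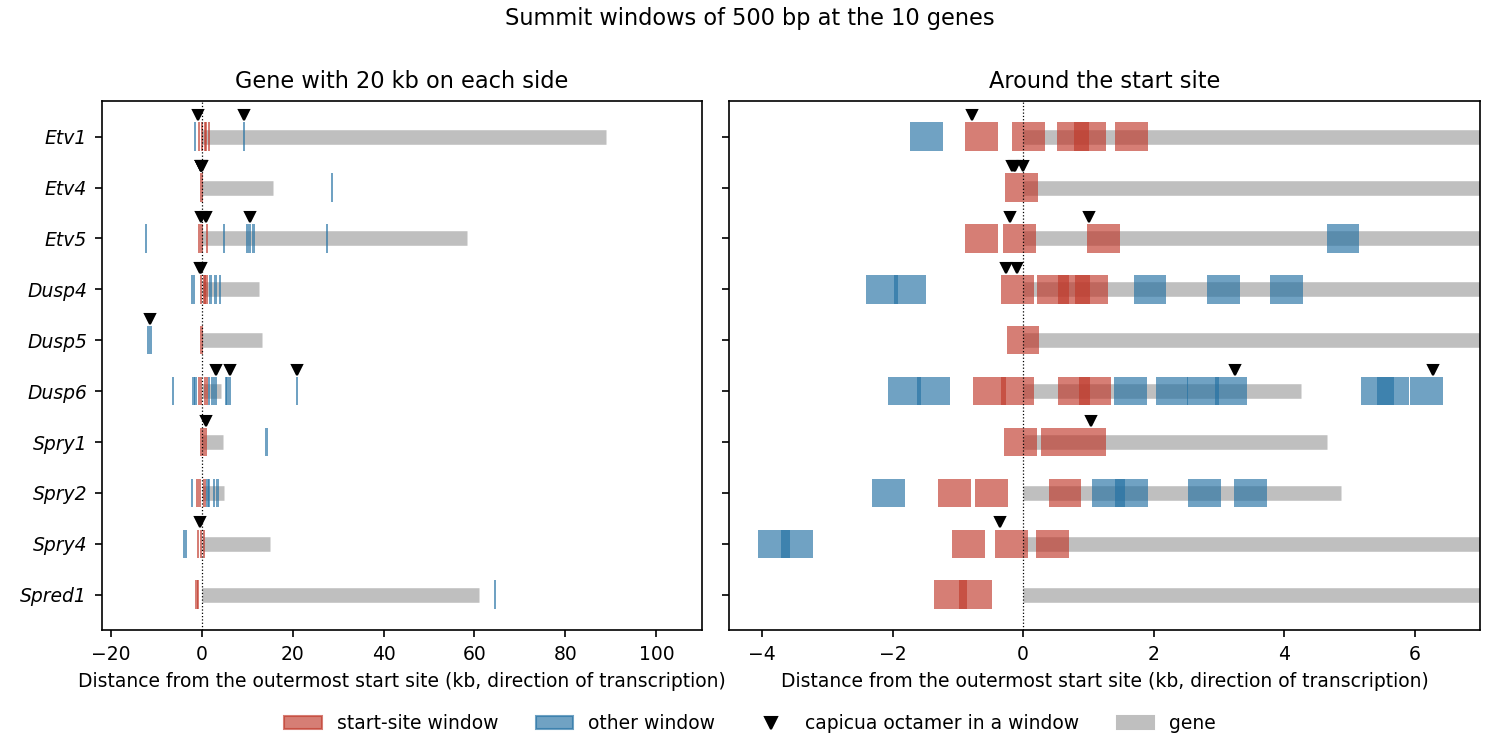
Position of every window along the 10 genes, as distance in kb from the outermost start site in the direction of transcription, with the whole gene and its flanks at the left and the start-site region enlarged at the right. Red boxes are start-site windows, blue boxes other windows (darker where they overlap), gray bars the genes and black triangles capicua octamers, all of which lie near the start site at Etv4 and Dusp4, while Etv5 and Etv1 have them both near the start site and in an intron and those of Dusp5 and Dusp6 lie farther out.

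The 3 PEA3 genes differed widely from each other, with 18 windows in all, 9 of them at start sites. Etv1 (chr12:39505967-39594802, plus strand) had 7 windows, of which 5 were start-site windows. Its annotation lists 13 start sites, and 6 of the windows came from 1 called peak that ran over the outermost ones, with centers from -1484 to 1667 bp of the outermost start site. In the list 86 called peaks kept 6 or more windows. The seventh window lay in an intron, 5231 bp past the nearest start site, and held an octamer 22 bp from its center. As the only one of the 10 genes without a CpG-rich start site, Etv1 had start-site windows with a median GC content of 50.0% (45.0% to 57.8%).

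Etv4 (chr11:101631056-101646685, minus strand) had the fewest windows of the 10, with 2 in its range. Its start-site window (chr11:101646463-101646962) was centered at -28 bp from the outermost start site and was the only window kept from its call. The other window lay 15443 bp past the nearest start site, downstream of the gene and inside Dhx8, which encodes a splicing helicase. At least as many windows within 20 kb were found for 59.7% of all protein-coding genes, and at least as many start-site windows for 52.9%. The gene with the most octamers in a single window thus had an ordinary number of windows.

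Etv5 (chr16:22381382-22439792, minus strand) had 9 windows, a number reached by 8.23% of all genes. A call with 3 windows covered the start site (centers at -639, -52 and 1089 bp from the nearest start sites), and a second call with 3 windows lay in an intron, 6882 to 8215 bp past the nearest start site. Single windows lay at 1698 bp, in an intron at -10316 bp from an inner start site, and upstream of the gene at -12305 bp. Octamers were found in 3 of the 9 windows, at -206, 855 and 7448 bp from the nearest start site, so that both calls with several windows held at least 1. The intronic window at -10316 bp held an ETS core (CCGGAA) 16 bp from its center and the single CRE (TGACGTCA) among the 65 windows.

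The 3 phosphatase genes had 27 windows, 9 of them at start sites. Dusp6, the cytoplasmic phosphatase with a strong preference for ERK, had the most windows of the 10. The gene (chr10:98725865-98730122, plus strand) is 4258 bp long, and 15 windows lay in it or within 20 kb, a number reached by 1.62% of all protein-coding genes and, per kb, by 0.251%. Of its own sequence 68.0% lay in windows. One called peak kept 8 windows, with centers from -1813 to 2281 bp of the start site, and 11 called peaks in the list kept 8 or more. A neighboring call with 2 windows followed at 2757 and 3185 bp, and a call with 3 windows lay beyond the end of the gene at 5437 to 6186 bp. Single windows lay upstream at -6360 bp and beyond the end of the gene. The 4 start-site windows of Dusp6 held no octamer, while 3 of the 11 others did, among them those with an octamer at 3250 and 6286 bp past the start site. At least 3 octamer windows within 20 kb were found at Dusp6 and Etv5, and at 0.255% of all protein-coding genes and 1.28% of genes with 3 or more start-site windows. In the pathway lists below they were found at 2 of 59 genes (3.39%), namely Spred2 and 1 other ETS gene.

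Dusp4, a nuclear phosphatase of ERK and other MAP kinases, had 9 windows (chr8:35870351-35882948, plus strand), 4 of them at the start site. One called peak with 5 windows had centers from -82 to 1948 bp of the start site, single windows followed at 3074 and 4041 bp, and a call with 2 windows lay upstream at -2164 and -1734 bp. In all 21.9% of the gene lay in windows. Both octamers lay in the window at the start site itself, and none of the other 8 windows held one.

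Dusp5, a nuclear phosphatase specific for ERK, had 3 windows (chr19:53603599-53616921, plus strand), a number reached by 46.2% of all genes. Its start-site window was centered at -2 bp, and a call with 2 windows lay at -11808 and -11262 bp. The octamer lay in the nearer of these upstream windows, 4 bp from its center. The start-site window held no octamer. It held 2 serum response (CArG) boxes side by side at -41 and -31 bp, the element through which serum response factor and its ETS partners act. They are shown in capitals in the stretch of the window that ends at the start site.
Dusp5 start-site window, chr19:53603507-53603598, plus strand: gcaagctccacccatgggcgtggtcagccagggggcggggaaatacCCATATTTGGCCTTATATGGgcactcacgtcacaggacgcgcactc

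The CArG box, CC, then 6 bases of A or T, then GG, was added to the motifs after the sequences had been seen. It was in 3 of the 65 windows (4.62%), against 2.14% of the list, at Dusp5 and Dusp6 only. Dusp6 had 3 such boxes upstream of its start site, at -6546, -1909 and -1825 bp.

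The 4 Sprouty and Spred genes had 20 windows, 11 of them at start sites. Spry2 (chr14:106291166-106296036, minus strand) had the most, with 8 windows from 3 called peaks, each of which kept 2 or more. Their centers ran from -2064 to 3486 bp of the start site, and 48.2% of the gene lay in windows. The start site itself lay between windows, the nearest being centered at -487 bp, and among the lettered summits of that call 1 was absent from the list. No octamer was found in the 8 windows. Spry1 (chr3:37538869-37543520, plus strand) had 4 windows, of which 3 were start-site windows with centers between -42 and 896 bp of the nearest start sites, and 1 lay downstream at 14105 bp. Its octamer lay 912 bp past a start site and 16 bp from the center of its window. These start-site windows had the highest median GC content of the 10 genes, 72.8%.

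Spred1 (chr2:116947110-117008015, plus strand) had 3 windows, and none of them overlapped the gene. Both start-site windows came from 1 call, with centers at -1111 and -725 bp, and the third lay downstream of the gene at the start of the microRNA gene Mir674. Spred1 and Spry2 were the genes without an octamer. The stretches around the centers of their nearest start-site windows are shown for contrast with those of Etv4 and Dusp4. Capitals mark the ETS core CCGGAA, which occurred once in the stretch shown for Spry2 and not in that for Spred1.
Spry2 start-site window, chr14:106296433-106296612, minus strand: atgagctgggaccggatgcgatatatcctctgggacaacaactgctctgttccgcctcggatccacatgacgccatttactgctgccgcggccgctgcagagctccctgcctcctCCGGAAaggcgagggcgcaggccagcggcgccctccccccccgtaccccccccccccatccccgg
Spred1 start-site window, chr2:116946295-116946474, plus strand: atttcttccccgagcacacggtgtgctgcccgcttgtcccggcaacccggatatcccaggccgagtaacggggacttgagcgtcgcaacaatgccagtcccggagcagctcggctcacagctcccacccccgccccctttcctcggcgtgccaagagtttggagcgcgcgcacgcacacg

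Spry4 (chr18:38745922-38760922, minus strand) had 5 windows, 3 of them at the start site. An octamer lay at -357 bp, in the window centered at -174 bp. The start sites of Arhgap26 and of 9630014M24Rik lie near this gene, and its 3 start-site windows were also within 1 kb of them. The 2 windows farther upstream overlapped both of these genes, so none of the 5 windows can be given to Spry4 alone.

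At the level of genes, an octamer lay in a start-site window of 6 of the 10 genes (Etv1, Etv4, Etv5, Dusp4, Spry1 and Spry4), against 2.49% of all protein-coding genes. Genes with many windows have more chances of a match. Among genes with 3 or more start-site windows the share was 9.11%, and among CpG-rich genes 3.90%. In any window within 20 kb an octamer was found at 8 of the 10 genes, against 9.63% of all genes and 19.2% of genes with 5 to 9 windows in that range. Per 10 kb of merged window sequence there were 5.54 octamers at the 10 genes and 0.947 in the list. Of the 17 octamers, 10 lay within 100 bp of the center of a window, a stretch that makes up 40.2% of the window length.

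The octamer with a terminal GGA made up most of the difference. TGAATGGA was in 10 of the 65 windows (15.4%), against 1.93% of the list, and TGAATGAA in 4 (6.15%), against 2.40%. Start-site windows of the 10 genes held an octamer in 7 of 29 cases (24.1%), against 2.79% of windows at protein-coding start sites, and the remaining windows in 6 of 36 (16.7%), against 5.15%. The octamers are rich in A and T, and the shares were therefore also read within bands of GC content. Within start-site windows of 50% to 60% GC, 4 of 12 windows of the 10 genes had an octamer, against 3.71% of the list, at 60% to 70% GC 2 of 10 had one, against 2.02%, and from 70% GC 1 of 3 had one, against 1.11%. Below 50% GC none of 4 had one, against 5.22%. Away from start sites the octamer windows lay almost all in the 50% to 60% band, with 5 of 9 windows against 4.37% of the list, below 50% GC 1 of 21 windows had one, against 6.27%, and at 60% to 70% GC none of 6 had one, against 2.38%.

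**Figure D4:**
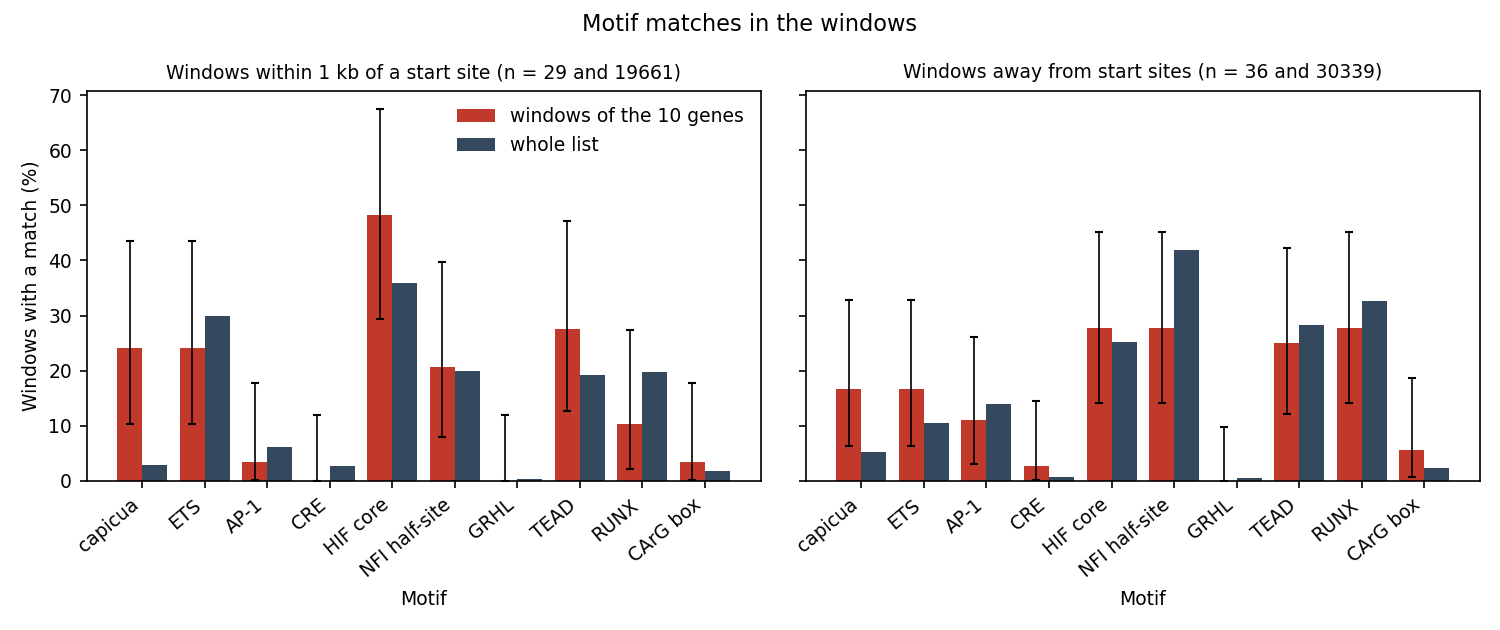
Percentage of windows with at least 1 match to each motif (vertical axis), for windows of the 10 genes (red, with exact 95% binomial intervals) and for the whole list (dark), at start sites (left, 29 and 19661 windows) and away from them (right, 36 and 30339 windows). The capicua octamers stand at 24.1% against 2.79% at start sites. Windows of the same gene can overlap and share a match, so they are not independent and the intervals do not serve as a test.

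Over all windows the other motifs lay closer to the list. The ETS core CCGGAA is a form of site for the PEA3 factors and the only ETS form searched here. It was in 13 of the 65 windows (20.0%), against 18.1% of the list. The shares were 24.1% against 29.8% at start sites and 16.7% against 10.5% away from them. The AP-1 sites TGACTCA and TGAGTCA were in 5 windows (7.69%), against 10.8%, and all of these lay outside the central 200 bp, where 5.21% of the windows in the list had one. The HIF core ACGTG was in 24 windows (36.9%), against 29.4%, with 48.3% against 35.9% at start sites and 27.8% against 25.2% away. The TEAD site GGAATG was in 17 windows (26.2%), against 24.7%, with 27.6% against 19.2% at start sites and 25.0% against 28.4% away. The NFI half-site TGCCAA was in 16 windows (24.6%), against 33.2%, and the RUNX site TGTGGT in 13 (20.0%), against 27.5%. The CRE was in 1 window (1.54%), against 1.52%, and the GRHL site AACCGGTT in none, against 0.452%. With 65 windows the exact interval for a motif not found reaches 5.52%. All motifs were searched on both strands, no ETS match overlapped a TEAD match, and a match does not show that a factor was bound. In composition the start-site windows of the 10 genes were close to the list, with a median GC content of 58.6% against 61.2% and a CpG ratio of 0.781 against 0.721. Away from start sites the CpG ratio was 0.354 against 0.233.

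Genes of the surrounding pathway were counted next, on lists chosen by function, with earlier results of these data known. Of 59 such genes 52 had a start-site window (88.1%), close to the 84.7% of CpG-rich genes. All 20 genes of the ERK cascade had one, from the receptor Egfr (4 windows) through the adaptor Gab1 (4) to the kinases. Cic, the gene of capicua, had the most with 10. Among the other MAP kinase phosphatases 6 of 7 had a start-site window, with 6 windows at Dusp7, 3 at Dusp10 and none at Dusp9. Spred2 had 2 and Spred3 had 3, and Spry3 was not analysed here. Of 16 other ETS genes 12 had one, most at Elf2 (7), Ets2 (4) and Gabpa (4), and the 4 without one included Elk3, Fli1 and Sfpi1, which encodes the blood factor PU.1. Among 14 immediate early targets 12 had one, most at Myc (7), Phlda1 (5) and Egr1 (3), and Egr3 and Fosl1 had none.

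The pooled octamer share of these lists lay between that of the 10 genes and that of all genes. A start-site octamer was found at 9 of the 59 genes (15.3%), against 6 of the 10, and an octamer within 20 kb at 21 of the 59 (35.6%), against 8 of the 10. Among these genes, named here after their values were seen, were the phosphatase gene Dusp16, the ETS genes Erg and Ets2, and Fos, Fosb, Maff and Srf among the immediate early targets. By list the start-site share was 28.6% for immediate early targets, 14.3% for the other phosphatases, 12.5% for other ETS genes and 10% for the ERK cascade, and neither of the other Spred genes had one.

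**Figure D5:**
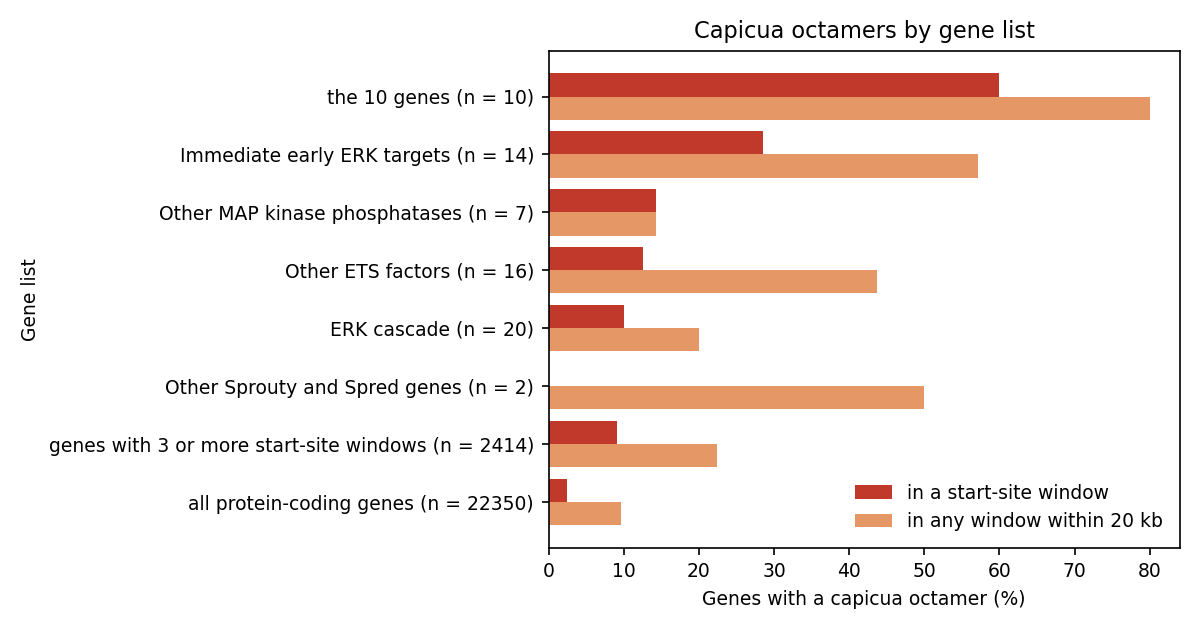
Percentage of genes with a capicua octamer in a start-site window (red) or in any window within 20 kb (orange), for the 10 genes, the 5 pathway lists, genes with 3 or more start-site windows and all protein-coding genes, with the number of genes in brackets. The 10 genes stand at 60% and 80%, the immediate early targets at 28.6% and 57.1% and all genes at 2.49% and 9.63%; the list of other Sprouty and Spred genes has 2 members.

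Marker genes were counted as a description of the pool. The paper reports EpCAM+ cells for its HIF1α experiment, so windows at epithelial markers are no independent finding about cell type if those cells made the pool. A start-site window was found at all 8 luminal epithelial markers (Epcam and Gata3 among them), at none of 4 basal markers, at none of 5 immune markers, Ptprc for CD45 included, and at none of 5 markers of stroma and vessels. The share was 52.9% over all protein-coding genes and 22.3% over those without a CpG-rich start site. A CpG-rich start site was found at 4 of the 8 luminal markers and at none of the others, and its part in this contrast was not tested. Windows away from the start sites of the marker itself were present at some of the other markers: 5 overlapped Trp63 and 5 overlapped Pecam1. Within 20 kb of Cd79a lay 10 windows, none of which overlapped it, and whether they belong to neighboring genes was not checked. These genes were named after their values were seen. A window in the pool does not show in which share of the cells the site was accessible, nor that the gene was transcribed.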

How the data were processed

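Single cells from MMTV-PyMT breast tumor tissue were profiled by Pi-ATAC. Per the study's methods and the submitters' processing notes, the authors mapped reads with Bowtie2 (2.1.0), removed duplicates with Picard (1.79), called summits on pooled cells with MACS2, whose version is not given in the sources used here, and kept the windows with the lowest q-values. The notes name mm9 and hg19, and the coordinates here are mm9. The deposited values are positions only: 50000 windows of 500 bp with a call name and no score, count or q-value, so read depth and its precision are unknown. The highest call number was 109284, of which 35.1% kept a window; a gene without windows may still be accessible below the limit of the list.

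Genes and start sites came from GENCODE M1 on chromosomes 1 to 19 and X, and sequence from the mm9 reference. Counts used Python 3.11.15, pandas 2.3.3, numpy 2.4.6, scipy 1.17.1 and pysam 0.24.0; figures used matplotlib 3.10.9. The counting was tested on simulated data. Hras and Spi1 were matched as Hras1 and Sfpi1. The 960 wells were mapped to 2 stains by their labels but enter no comparison, since the list is a pool, and no statistical test was run. The members, lists and motifs were chosen with earlier results of these data known. All 10 genes were named, with up to 3 genes of each list with the most start-site windows and up to 3 with none; sequences were shown for most octamers and for selected start-site windows, and some items are not reported here. Alternatives were other distances (500 bp and 2 kb; 10 and 50 kb), gene bodies alone, window centers, the outermost start site, merged windows, calls with 2 or more kept windows, the central 200 bp, and windows at start sites of other genes left out. Exact binomial intervals cover counting error only and take the windows as independent, although some overlap.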

Additional observations from a re-analysis of the deposited data

How the results depend on the processing

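All 10 genes kept a start-site window within 500 bp and 2 kb, by window center and at the outermost start site; 9 did so without windows at start sites of other genes and 8 in broad calls, those that kept 2 or more windows, against 22.1% of all genes there. The 65 windows became 60 within 10 kb, 96 within 50 kb, 52 after merging, 50 in broad calls and 61 without windows at other start sites, and 38 in gene bodies alone, where less sequence is counted. The octamer share was 12.3% in the central 200 bp, against 1.49% of the list, and 25.0% after merging, against 4.74%. Less sequence also lowered other motif shares in the central 200 bp: AP-1 and CRE to 0%, the HIF core and the NFI half-site each to 13.8% and TEAD to 10.8%, against 5.21%, 0.858%, 13.9%, 18.3% and 11.0% of the list. In start-site windows alone CRE was at 0% and RUNX at 10.3%. In broad calls 9 of the 20 ERK cascade genes and 7 of the 16 other ETS genes had a start-site window. The remaining 68 values stayed within 1.5 times for counts or within the exact interval for shares. Leaving out windows at other start sites, the CArG box and the bands of GC content were chosen after seeing the data. The limits on octamer number and spacing, the split by octamer and the distance to window centers were also not planned beforehand. Nor were the octamer counts by gene. No paired analysis was possible because the result comes from no test on 1 pooled list, and for the same reason no replicate could be left out. Without reads, the depth limit of each window cannot be given.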
